A study of Homo sapiens with 16 samples.

Results

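The integrated stress response is the program by which a cell slows protein synthesis under stress while making the transcription factor ATF4. The mRNA of ATF4 and of 9 genes of its program was followed in the colorectal cancer (CRC) cell lines HT55 and SW948 after treatment with itraconazole. The 10 genes were ATF4, ATF3, DDIT3, ASNS, TRIB3, CHAC1, SESN2, PSAT1, PHGDH and PPP1R15A. They were taken by name and matched by symbol to the Ensembl identifiers of the count files, and all 10 were found among the 54127 identifiers listed.

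Itraconazole moved these mRNAs in both directions in SW948 and lowered most of them in HT55. In SW948, the mRNAs of the stress transcription factors ATF4, ATF3 and DDIT3 and of the phosphatase subunit PPP1R15A rose. Those of PSAT1, PHGDH, CHAC1, TRIB3 and SESN2 fell in the same cells. In HT55 no member rose by the test and most fell, with ASNS, PHGDH and PSAT1 falling the most. Of all genes tested in HT55, 27.5% rose and 26.5% fell. For most members, ATF4 included, the responses of the lines differed by a direct test. Many other genes differed too, with 24.8% of all genes tested responding higher in SW948 and 29.1% lower.

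The 4 groups were HT55 and SW948 cells, each given itraconazole at 5 µM or its solvent DMSO and harvested at day 6, with 4 libraries in each group. Both are established human CRC lines, the labels name no transgene or engineered deletion, and both were kept as adherent cultures with serum. Itraconazole is an antifungal triazole whose fungal target is lanosterol demethylase, and the study asked how it acts on CRC cells. Each line is a single culture lineage, and the labels do not say whether the 4 replicates came from separate cultures. The paper states that its experiments used 4 biological replicates, without describing how they were grown apart. The p-values thus measure the spread between these libraries within each lineage.

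As background, 4 kinases (GCN2, PERK, PKR and HRI) sense amino acid shortage, misfolded protein in the endoplasmic reticulum (ER), double-stranded RNA and heme or mitochondrial stress, and each phosphorylates the translation initiation factor eIF2. Most translation then falls, while the ATF4 mRNA, which has short upstream reading frames, is translated more. ATF4 pairs with other basic leucine zipper (bZIP) proteins and binds C/EBP-ATF composite sites at genes of amino acid synthesis, amino acid transport, redox defence and the stress response itself. In tumour cells, those of the gut included, this program is known for sustaining growth when nutrients are short. Messenger RNA counts measure neither ATF4 protein nor eIF2 phosphorylation.

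The promoter sequences of the 4 members that held a searched motif are shown here because genes with the same motif moved in different directions below. The windows run from 250 bases before to 50 bases after a RefSeq transcription start (GRCh38.p14, 5′ to 3′ on the gene's strand), and capitals mark the match. The motifs searched on both strands were the composite core TGATGNAA, the palindromic cyclic AMP response element (CRE) TGACGTCA, and the ER stress element.
ATF3 (chr1:212565157-212565456, plus strand): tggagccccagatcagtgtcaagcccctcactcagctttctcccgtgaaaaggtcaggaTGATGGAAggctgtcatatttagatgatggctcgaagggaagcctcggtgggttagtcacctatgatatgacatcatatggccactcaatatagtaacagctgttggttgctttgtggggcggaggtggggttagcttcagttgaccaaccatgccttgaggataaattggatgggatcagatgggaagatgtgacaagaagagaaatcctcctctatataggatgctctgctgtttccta
ASNS (chr7:97872359-97872658, minus strand): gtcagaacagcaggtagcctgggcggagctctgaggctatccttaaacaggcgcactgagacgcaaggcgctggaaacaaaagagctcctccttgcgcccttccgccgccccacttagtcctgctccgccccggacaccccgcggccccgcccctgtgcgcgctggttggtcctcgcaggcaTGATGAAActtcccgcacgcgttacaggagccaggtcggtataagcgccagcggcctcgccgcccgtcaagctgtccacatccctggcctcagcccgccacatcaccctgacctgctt
CHAC1 (chr15:40953221-40953520, plus strand): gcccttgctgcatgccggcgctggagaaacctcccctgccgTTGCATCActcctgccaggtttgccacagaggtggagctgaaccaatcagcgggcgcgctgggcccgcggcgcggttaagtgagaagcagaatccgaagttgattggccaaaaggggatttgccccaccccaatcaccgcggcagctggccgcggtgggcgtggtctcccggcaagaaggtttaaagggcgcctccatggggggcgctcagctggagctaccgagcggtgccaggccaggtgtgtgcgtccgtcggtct
PPP1R15A (chr19:48872171-48872470, plus strand): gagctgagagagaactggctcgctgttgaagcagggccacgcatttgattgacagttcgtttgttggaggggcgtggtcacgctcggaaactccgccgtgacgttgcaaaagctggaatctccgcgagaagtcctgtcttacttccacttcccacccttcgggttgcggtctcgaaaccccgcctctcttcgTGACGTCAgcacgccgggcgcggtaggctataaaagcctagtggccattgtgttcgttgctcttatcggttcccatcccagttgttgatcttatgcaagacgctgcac

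The composite core lay in the ATF3 window from base -191 to -184 and in the ASNS window from base -68 to -61, both on the gene's strand. In CHAC1 it lay on the opposite strand from -209 to -202, where it reads TTGCATCA. PPP1R15A held the CRE from -58 to -51. All 10 members had at least 1 window, and the other 6 genes, as well as the other windows of ATF3 and ASNS, held none of these letters. Across the 27305 genes with a window, 4.46% held the composite core, 2.25% the CRE and 0.0916% the ER stress element. A match describes the letters only.

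Gene counts per library ran from 8269406 to 11110814, and all 10 members passed the filter on low counts in both lines. All 8 markers of colorectal epithelium were detected, with summed levels of 8251 to 8552 counts per 1000000 counted (CPM) under DMSO and 9193 to 9745 CPM under itraconazole in HT55, and of 5262 to 5570 CPM and 7380 to 9651 CPM in SW948. Taken singly, 3 of these 8 rose and 1 fell in HT55 (edgeR adjusted p under 0.05), beside 27.5% and 26.5% of all genes tested. In SW948 4 rose and 4 fell, beside 38.9% and 41.3% of all genes. CDX2 (-0.88), CDX1 (-0.73) and CDH1 (-0.225, log2) were among the 4 that fell. Of 9 matched markers of leukocytes, fibroblasts, endothelium and smooth muscle, the summed level was higher under itraconazole in both lines, without overlap. It was 2.17 to 3.29 CPM under DMSO and 3.90 to 4.47 CPM under itraconazole in HT55, and 2.78 to 5.39 CPM and 9.84 to 12.5 CPM in SW948. In each line 1 of these genes passed the filter on low counts, and it rose. In HT55 this was the fibroblast and pericyte marker PDGFRB, with 6 to 12 counts per library under DMSO and 18 to 25 under itraconazole (1.25 ± 0.255, adjusted p = 0.00216 by edgeR, log2). In SW948 it was COL1A1, which had 75 to 105 counts per treated library (1.65 ± 0.18, adjusted p = 9.01e-07 by edgeR, log2), while CD3E and COL3A1 had none in any library. PDGFRB was not higher in treated SW948, with 3 to 10 counts per library under DMSO and 1 to 3 under itraconazole. The part of these small rises in the results was not tested. CPM are relative to the other transcripts of a library, scaled here by the trimmed mean of M-values (TMM), so fewer cells with a transcript and less of it per cell cannot be told apart. Values are given for replicates 1 to 4 in that order, and a gene is said to rise or fall where edgeR's quasi-likelihood test gave a Benjamini-Hochberg adjusted p under 0.05 over all genes tested. Changes are log2 fold changes of itraconazole over DMSO with their standard error (SE). Where changes on plain library totals are given, the median of all genes on those totals was -0.18 in HT55 and -0.35 in SW948.

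**Figure D1:**
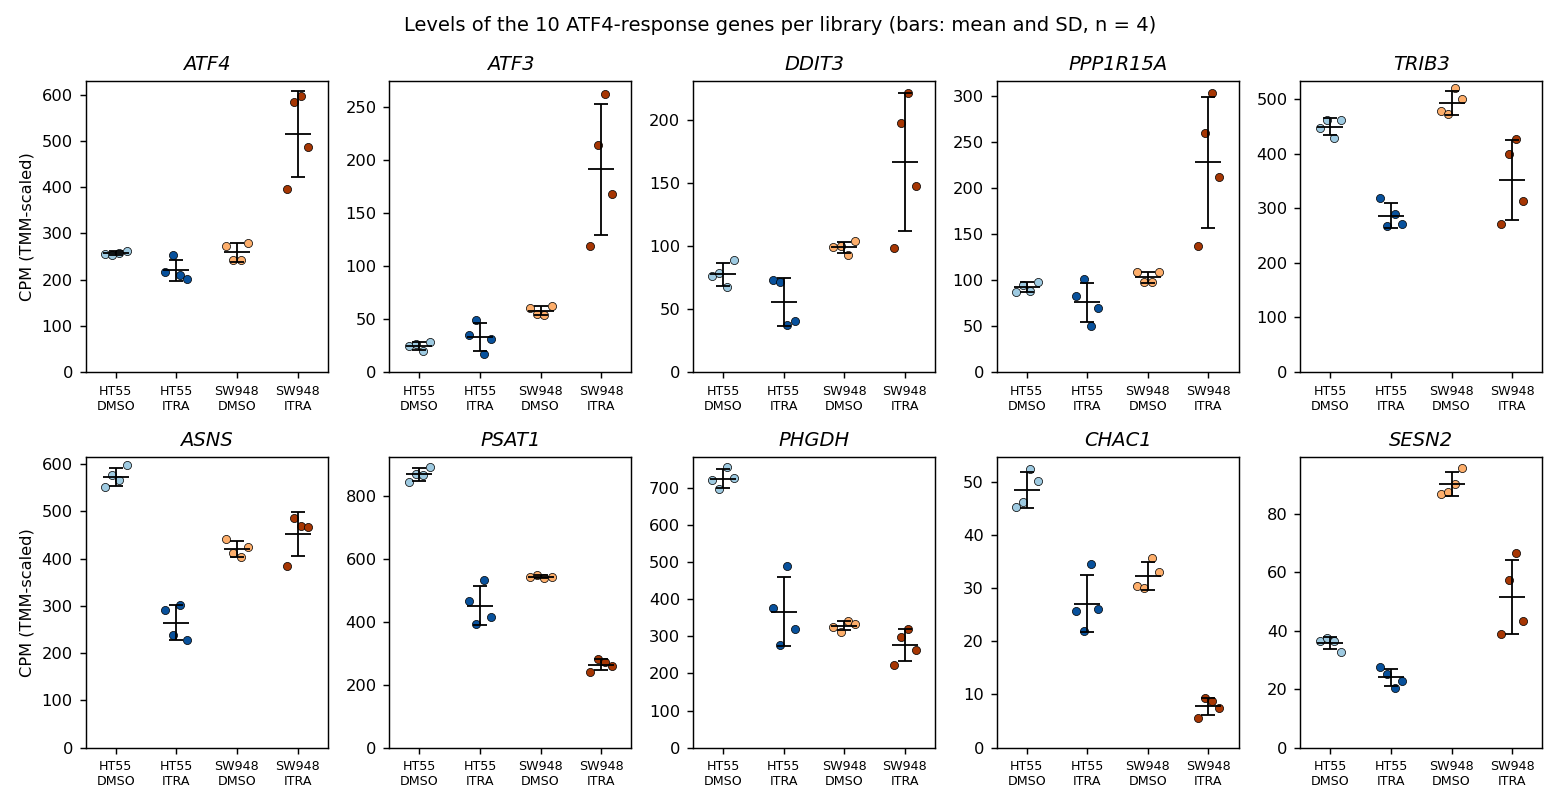
CPM (vertical axis, linear from 0, scaled by TMM) of each of the 10 genes in the 16 libraries, with points for libraries and bars for the mean and SD of the 4 libraries of a group (ITRA, itraconazole). ATF4, ATF3 and PPP1R15A in treated SW948 lie above every control of that line, while PSAT1 and CHAC1 lie below the controls in both lines.

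In HT55 0 of the 10 members rose and 7 fell, where 27.5% of the 12133 genes tested rose and 26.5% fell. The count of rises was also 0 at an unadjusted edgeR p under 0.05 and 0 by DESeq2. In SW948 4 rose and 5 fell, where 38.9% of 12505 genes rose and 41.3% fell. The median log2 fold change of the 10 was -0.62 in HT55 and -0.11 in SW948, beside -0.015 and -0.025 over all genes tested in those lines. In SW948 the counts of members called were near these background shares, so they say little about the set as a whole, and the genes are described one by one.

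ATF4 (ENSG00000128272, GRCh37 chr22:39915700-39918688, plus strand) encodes the factor that drives the program. In SW948 its level was 273, 242, 241 and 278 CPM under DMSO and 396, 583, 596 and 486 CPM under itraconazole. Every treated SW948 library lay above every control, and replicate 1 was the lowest of the treated. The rise was 0.96 ± 0.11 (SE, edgeR adjusted p = 2.51e-06). In HT55 the level was 256, 253, 257 and 262.5 CPM under DMSO and 217, 252, 209 and 201 CPM under itraconazole. The treated HT55 libraries all lay below the controls, with replicate 2 only just so. This fall was -0.23 ± 0.075 (SE, edgeR adjusted p = 0.0231), and it was small enough to depend on the fit. The edgeR adjusted p became 0.0639, 0.0588, 0.0632 and 0.0759 without DMSO replicates 1 to 4, 0.0556 and 0.0673 without treated replicates 1 and 4, and 0.0738 in 1 fit on all 16 libraries.

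ATF3 (ENSG00000162772, GRCh37 chr1:212738676-212794119, plus strand) encodes a bZIP factor that ATF4 induces and that also answers to other stress signals. SW948 libraries had 60.1, 55.0, 53.5 and 62.4 CPM under DMSO and 119, 215, 262.5 and 168 CPM under itraconazole. All treated libraries were above all controls, and replicates 1 and 3 were the lowest and highest. The rise, 1.69 ± 0.18 (SE, edgeR adjusted p = 9.12e-07), was the largest of the 10 genes in either line. HT55 libraries had 24.4, 26.5, 20.1 and 28.1 CPM under DMSO and 35.3, 48.75, 16.9 and 30.8 CPM under itraconazole. Treated replicate 3 lay below every control, the other 3 lay above them, and the difference was 0.40 ± 0.25 (SE, edgeR adjusted p = 0.203). Without treated replicate 3 it was 0.64, adjusted p = 0.00189, which passed.

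DDIT3 (ENSG00000175197, GRCh37 chr12:57910371-57915520, minus strand) encodes CHOP, the bZIP partner of ATF4 tied to cell death under prolonged ER stress. Its SW948 level was 99.5, 100.4, 92.9 and 104 CPM under DMSO and 98.9, 198, 222 and 148 CPM under itraconazole. Treated replicate 1 lay among the controls and the other 3 above them. The rise was 0.71 ± 0.18 (SE, edgeR adjusted p = 0.00221). Over the alternatives other than leaving out a library it ran from 0.37 to 0.75, and the adjusted p (edgeR or DESeq2) reached 0.0476. Its HT55 level was 75.9, 78.4, 67.2 and 89.2 CPM under DMSO and 72.8, 71.5, 37.1 and 40.9 CPM under itraconazole. Treated replicates 1 and 2 overlapped the controls, replicates 3 and 4 lay well below them, and the difference was -0.49 ± 0.21 (SE, edgeR adjusted p = 0.066). It passed without treated replicate 1 (-0.64, adjusted p = 0.028) or without treated replicate 2 (-0.635, adjusted p = 0.0211), and on plain library totals (-0.67, adjusted p = 0.0135). Of the 1307 exonic bases of DDIT3 in the annotation, 355 overlap exons of MARS1 on the opposite strand and 58 overlap MBD6. Whether strand was used in counting is not given in the sources used here, so the DDIT3 level is uncertain.

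PPP1R15A (ENSG00000087074, GRCh37 chr19:49375469-49379316, plus strand) encodes GADD34, the subunit that directs protein phosphatase 1 to eIF2 and so closes the loop. The SW948 libraries had 108, 97.4, 98.0 and 108 CPM under DMSO and 137, 259, 303 and 211 CPM under itraconazole. The groups did not overlap, and the treated libraries ranked in the same order as for ATF3 and DDIT3. The rise was 1.11 ± 0.175 (SE, edgeR adjusted p = 4.45e-05). In HT55 the level was 86.75, 95.02, 87.8 and 98.0 CPM under DMSO and 82.2, 101, 50.2 and 69.7 CPM under itraconazole. Treated replicate 2 was the highest of the 8 HT55 libraries and treated replicate 3 the lowest. The HT55 difference was -0.29 ± 0.17 (SE, edgeR adjusted p = 0.167), and it passed without treated replicate 2 (-0.46, adjusted p = 0.0161) and on plain library totals (-0.46, adjusted p = 0.0202).

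TRIB3 (ENSG00000101255, GRCh37 chr20:343479-378203, plus strand) encodes a pseudokinase that ATF4 and CHOP induce and that restrains ATF4. In SW948 its level was 477, 472, 519.9 and 501 CPM under DMSO and 270.1, 398.5, 427 and 312 CPM under itraconazole. Treated SW948 libraries were all lower than the controls, although ATF4 and DDIT3 rose in those cells. The fall was -0.52 ± 0.12 (SE, edgeR adjusted p = 0.00101). In HT55 the level was 446, 461, 429 and 461 CPM under DMSO and 318, 268, 289 and 271 CPM under itraconazole, again without overlap, and the fall was -0.65 ± 0.069 (SE, edgeR adjusted p = 4.42e-05).

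ASNS (ENSG00000070669, GRCh37 chr7:97480989-97501854, minus strand) encodes asparagine synthetase, which makes asparagine from aspartate and glutamine. In HT55 its level was 551, 577, 566 and 597 CPM under DMSO and 291, 238, 301 and 228 CPM under itraconazole. The treated libraries were far below the controls, and the fall of -1.12 ± 0.095 (SE, edgeR adjusted p = 1.29e-05) was the largest of the 10 genes in HT55. In SW948 the level was 441, 411, 405 and 426 CPM under DMSO and 384.5, 487, 470.2 and 467 CPM under itraconazole. Treated replicate 1 lay below the controls and the other 3 above them. The SW948 difference was 0.071 ± 0.077 (SE, edgeR adjusted p = 0.405), and its sign depended on scaling, being -0.26, adjusted p = 0.00107 on plain library totals. The median of all genes in SW948 was -0.35 on those totals, so ASNS stayed above the typical gene. The ASNS difference was 0.16, adjusted p = 0.0209 without treated replicate 1.

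PSAT1 (ENSG00000135069, GRCh37 chr9:80912041-80945009, plus strand) encodes phosphoserine aminotransferase, the second enzyme of serine synthesis. In HT55 its level was 845, 870.2, 868 and 893 CPM under DMSO and 466, 392.4, 534 and 417 CPM under itraconazole. In SW948 it was 543, 550.1, 539 and 541.5 CPM under DMSO and 240.5, 282, 273 and 260.5 CPM under itraconazole. No treated library of either line reached its controls. The fall was -0.945 ± 0.093 (SE, edgeR adjusted p = 3e-05) in HT55 and -1.07 ± 0.065 (SE, edgeR adjusted p = 3.18e-09) in SW948.

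PHGDH (ENSG00000092621, GRCh37 chr1:120191034-120286841, plus strand) encodes phosphoglycerate dehydrogenase, the first enzyme of the same route. The HT55 libraries had 720.5, 696, 757 and 726 CPM under DMSO and 377, 277, 490.1 and 321 CPM under itraconazole. The HT55 groups did not overlap, treated replicate 3 was the least lowered, and the fall was -0.99 ± 0.15 (SE, edgeR adjusted p = 0.00033). In SW948 it was 325, 313, 342 and 333 CPM under DMSO and 221.5, 297, 320.4 and 263 CPM under itraconazole. Treated replicate 3 overlapped the SW948 controls, and the fall of -0.29 ± 0.095 (SE, edgeR adjusted p = 0.0132) was smaller than in HT55. In 1 fit on all 16 libraries the SW948 value was -0.25, adjusted p = 0.0826, which did not pass.

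CHAC1 (ENSG00000128965, GRCh37 chr15:41245160-41248710, plus strand) encodes an enzyme that breaks down glutathione and is a sensitive readout of the ATF4 and CHOP branch. SW948 gave 30.3, 30.1, 35.6 and 33.1 CPM under DMSO and 5.61, 9.29, 8.78 and 7.46 CPM under itraconazole. This was the largest fall among the 10 genes, -2.10 ± 0.13 (SE, edgeR adjusted p = 4.87e-09), in the line where ATF4, ATF3 and DDIT3 rose. HT55 gave 45.3, 46.1, 52.3 and 50.2 CPM under DMSO and 25.8, 21.8, 34.55 and 26.0 CPM under itraconazole. The groups did not overlap in either line, and the HT55 fall was -0.84 ± 0.13 (SE, edgeR adjusted p = 0.000383).

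SESN2 (ENSG00000130766, GRCh37 chr1:28586029-28609002, plus strand) encodes sestrin 2, a leucine sensor that holds back mTORC1. The level in SW948 was 86.8, 87.45, 90.2 and 95.7 CPM under DMSO and 38.9, 57.3, 66.6 and 43.3 CPM under itraconazole. In HT55 it was 36.4, 37.4, 36.4 and 32.7 CPM under DMSO and 27.4, 25.4, 20.6 and 22.7 CPM under itraconazole. Treated libraries lay below controls throughout. The fall was -0.85 ± 0.13 (SE, edgeR adjusted p = 3.82e-05) in SW948 and -0.58 ± 0.10 (SE, edgeR adjusted p = 0.000816) in HT55.

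**Figure D2:**
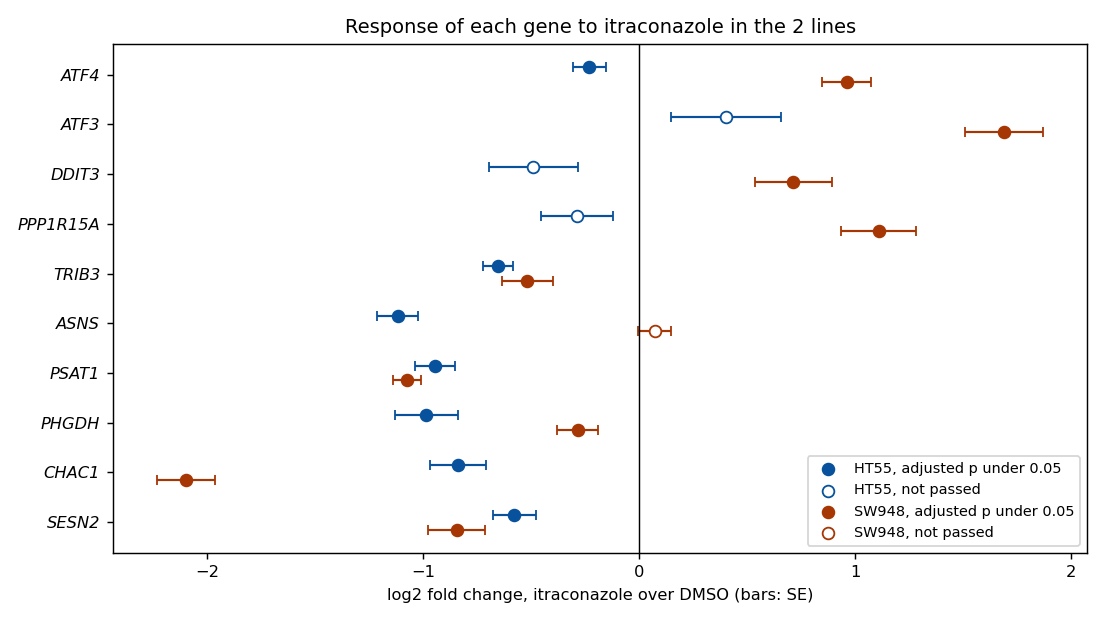
Log2 fold change of itraconazole over DMSO (horizontal axis, bars 1 SE) for each of the 10 genes in HT55 (blue) and SW948 (brown), with filled points where the adjusted p was under 0.05. ATF4, ATF3, DDIT3 and PPP1R15A are to the right of 0 for SW948, while TRIB3, PSAT1, PHGDH, CHAC1 and SESN2 are to the left for both lines.

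The test of the difference between the responses asked which genes the lines handled unlike each other. Among the 10, 6 responded higher in SW948 and 1 lower, where 24.8% of the 13249 genes tested were higher in SW948 and 29.1% lower. The SW948 response minus the HT55 response was 1.43 ± 0.27 (SE, edgeR adjusted p = 0.000179) for PPP1R15A. It was 1.32 ± 0.33 (SE, edgeR adjusted p = 0.0024) for ATF3. ATF4, DDIT3 and ASNS gave nearly equal gaps. The difference was 1.22 ± 0.15 (SE, edgeR adjusted p = 1.49e-06) for ATF4. For DDIT3 it was 1.23 ± 0.30 (SE, edgeR adjusted p = 0.00179). ASNS differed by 1.22 ± 0.13 (SE, edgeR adjusted p = 2.56e-07), as it fell in HT55 and did not pass in SW948. PHGDH fell in both lines, less in SW948, and differed by 0.73 ± 0.18 (SE, edgeR adjusted p = 0.00235). CHAC1 also fell in both, more in SW948, and differed by -1.23 ± 0.195 (SE, edgeR adjusted p = 3.13e-05).

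For TRIB3, SESN2 and PSAT1 the responses were not shown to differ. The 95% interval of the difference, taken from the SE, was -0.13 to 0.46 for TRIB3, -0.59 to 0.12 for SESN2 and -0.32 to 0.12 for PSAT1. The TRIB3 difference changed sign on plain library totals, to -0.041, adjusted p = 0.814, where the median of all genes was -0.23. On those totals SESN2 and PSAT1 passed as lower in SW948, at -0.44, adjusted p = 0.0261 and -0.30, adjusted p = 0.0444, and SESN2 also passed without treated SW948 replicate 3, at -0.39, adjusted p = 0.0468.

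The starting levels of the lines already differed for part of the set. Under DMSO 4 members were higher in HT55 and 2 lower, where 37.7% of genes were higher and 38.2% lower. These counts were near those background shares or below them. SESN2 and ATF3 were lower in HT55, with HT55 over SW948 at -1.33 ± 0.13 (SE, edgeR adjusted p = 9.24e-09) for SESN2 and -1.22 ± 0.24 (SE, edgeR adjusted p = 0.00012) for ATF3. The serine enzymes were higher in HT55, at 1.14 ± 0.13 (SE, edgeR adjusted p = 1.4e-07) for PHGDH and 0.68 ± 0.08 (SE, edgeR adjusted p = 2.31e-07) for PSAT1. CHAC1 and ASNS were also higher in HT55, at 0.59 ± 0.12 (SE, edgeR adjusted p = 0.00025) and 0.445 ± 0.088 (SE, edgeR adjusted p = 0.000138). ATF4 itself was 257 ± 3.90 CPM in HT55 and 259 ± 19.7 CPM in SW948 (SD, n = 4), a log2 difference of -0.01 with a 95% interval of -0.21 to 0.19. DDIT3, TRIB3 and PPP1R15A did not pass, at log2 differences of -0.35, -0.13 and -0.165. On plain library totals ATF4 (-0.21, adjusted p = 0.0343), DDIT3 (-0.55, adjusted p = 0.0138) and TRIB3 (-0.33, adjusted p = 0.00337) passed as lower in HT55. The median of all genes on those totals was itself -0.20, so ATF4 lay close to the typical gene there.

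After itraconazole all 10 members differed between the lines, 3 higher in HT55 and 7 lower, where 41.5% of genes were higher and 39.3% lower. ATF3 was the furthest apart, at -2.545 ± 0.24 (SE, edgeR adjusted p = 5.64e-09), followed by CHAC1 in the opposite direction. PPP1R15A was lower in treated HT55 at -1.59 ± 0.19 (SE, edgeR adjusted p = 2.39e-07), and DDIT3 at -1.59 ± 0.22 (SE, edgeR adjusted p = 1.26e-06). ATF4 was also lower in treated HT55, at -1.23 ± 0.105 (SE, edgeR adjusted p = 1.6e-09), and so was SESN2, at -1.10 ± 0.13 (SE, edgeR adjusted p = 2.75e-07). ASNS, which was higher in HT55 under DMSO, was lower in HT55 under itraconazole, at -0.77 ± 0.089 (SE, edgeR adjusted p = 1.36e-07). The 3 genes higher in treated HT55 were CHAC1, at 1.82 ± 0.15 (SE, edgeR adjusted p = 9.98e-10), PSAT1, at 0.78 ± 0.081 (SE, edgeR adjusted p = 3.13e-08), and PHGDH, at 0.41 ± 0.13 (SE, edgeR adjusted p = 0.00691), which overlapped. TRIB3 overlapped between the treated groups (-0.30 ± 0.11 SE, edgeR adjusted p = 0.0154), and its call was lost without treated SW948 replicate 2 (-0.24, adjusted p = 0.0605) or 3 (-0.19, adjusted p = 0.0835).

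Set per kilobase of exon (RPKM, from CPM and the union of annotated exons), PSAT1 was the most abundant of the 10 mRNAs in both DMSO groups, at 394 ± 8.85 RPKM in HT55 and 246 ± 2.19 RPKM in SW948 (SD, n = 4). TRIB3 was next in both, at 137 ± 4.59 and 149.7 ± 6.70 RPKM. ATF3 was the lowest member in HT55 under DMSO, at 6.19 ± 0.871 RPKM, and also in SW948, at 14.4 ± 1.05 RPKM, where CHAC1 at 15.7 ± 1.27 RPKM overlapped it. In treated SW948 the order was led by ATF4, at 197 ± 35.7 RPKM, ahead of DDIT3 at 128 ± 41.9 RPKM and PSAT1 at 119.7 ± 8.20 RPKM. The spread of DDIT3 overlapped those of both ATF4 and PSAT1. CHAC1 closed it at 3.80 ± 0.801 RPKM. These lengths come from a later annotation than the counts may have used, and the 9187 exonic bases given to PHGDH make its value low.

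A ratio of counts within a library needs no scaling, so each member was also set against ATF4. This measure was chosen after the values had been seen and is a description without a test. In SW948 the CHAC1 to ATF4 ratio was 0.1255 ± 0.0157 under DMSO and 0.0150 ± 0.000764 under itraconazole (SD, n = 4), 8.34-fold lower. PSAT1 went from 2.11 ± 0.166 to 0.521 ± 0.0656, 4.05-fold lower. The SESN2 ratio was 3.52-fold lower, TRIB3 2.81-fold, PHGDH 2.38-fold and ASNS 1.83-fold, and no treated SW948 library overlapped the controls for any of these 6. ATF4 itself rose 1.95-fold in SW948, which lowers the ratio of any gene whose level stays the same. The ASNS level did not pass as changed there (0.071 ± 0.077 SE, edgeR adjusted p = 0.405). In HT55 the ASNS ratio was also 1.83-fold lower, but there the ASNS level itself fell and ATF4 did not rise. PHGDH, PSAT1, CHAC1 and TRIB3 were 1.66-fold, 1.62-fold, 1.51-fold and 1.33-fold lower in HT55 without overlap, and SESN2 overlapped.

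PPP1R15A and DDIT3 had ratios that overlapped between the groups. PPP1R15A had a ratio of 0.3985 ± 0.00749 under DMSO and 0.433 ± 0.0675 under itraconazole in SW948, and 0.357 ± 0.0194 and 0.341 ± 0.0711 in HT55, overlapping in both lines. The DDIT3 ratio overlapped in both lines too, with a mean 1.21-fold lower under itraconazole in each. It was 0.384 ± 0.0220 under DMSO and 0.317 ± 0.0526 under itraconazole in SW948. The ATF3 ratio was higher under itraconazole in SW948, going from 0.223 ± 0.00292 to 0.364 ± 0.0581 with no overlap. In HT55 it went from 0.0962 ± 0.0131 to 0.148 ± 0.0477, where the groups overlapped.

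**Figure D3:**
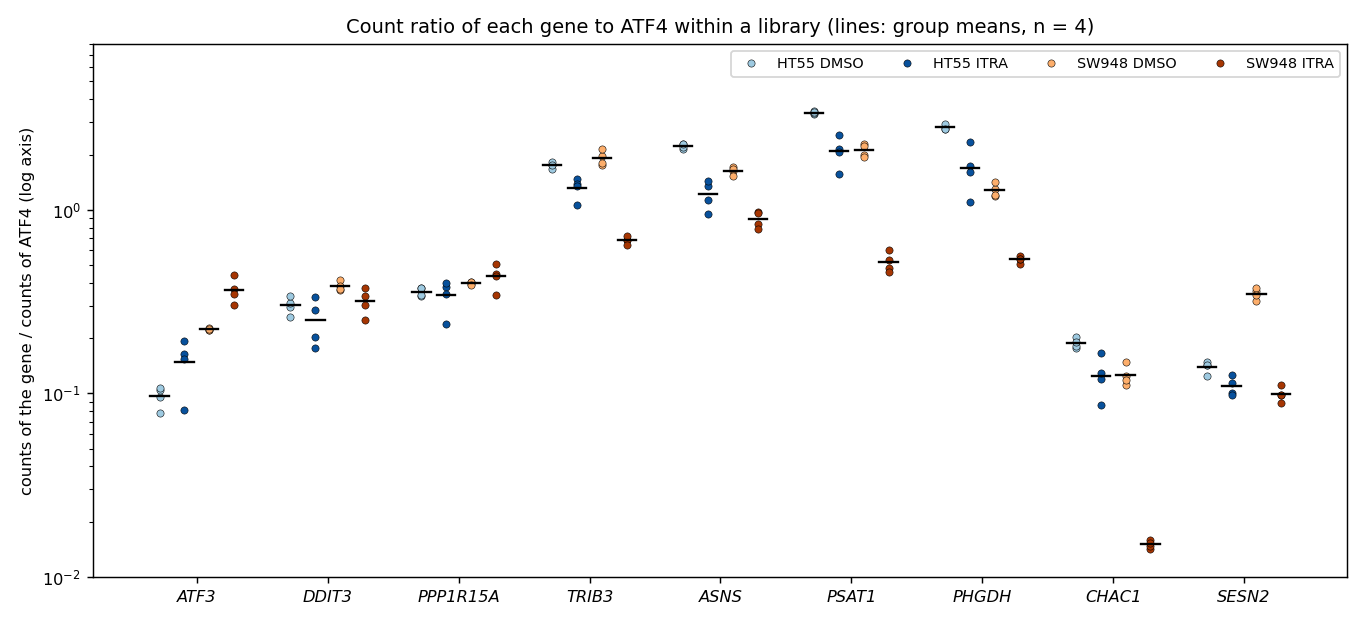
Counts of each gene divided by the counts of ATF4 in the same library (vertical axis, log scale), with points for the 16 libraries and lines for group means of 4 libraries. Treated SW948 lies below its controls for TRIB3, ASNS, PSAT1, PHGDH, CHAC1 and SESN2, and above them for ATF3. It overlaps them for PPP1R15A and, with a lower mean, for DDIT3.

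The treated libraries of a line were not alike. In treated SW948, replicate 1 was the lowest of the 4 for all 10 members, on TMM scaling and on plain totals, and replicate 3 was the highest for 7 of them. The TMM factors of these libraries were 0.9695, 0.8884, 0.8705 and 0.9245 for replicates 1 to 4, and replicate 1 had the lowest share of multiply aligned reads, 25.3% beside 26.2% in the other 3. Their part in the order was not tested. Without that library the SW948 rises were larger, 1.08 for ATF4, 1.88 for ATF3, 0.915 for DDIT3 and 1.31 for PPP1R15A on the log2 scale, and all 4 passed. The SW948 falls were smaller without it and still passed. They were -0.18 for PHGDH, -0.395 for TRIB3, -0.715 for SESN2, -1.02 for PSAT1 and -1.95 for CHAC1.

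In treated HT55, replicate 3 was the lowest for ATF3, DDIT3, PPP1R15A and SESN2 and the highest for ASNS, PSAT1, PHGDH and CHAC1. Its TMM factor, 0.9701, was the highest of the treated HT55 libraries, and its share of multiply aligned reads, 24.1%, the lowest. Their part in this split was not tested. Without replicate 3 the HT55 falls were larger for ASNS (-1.17), PSAT1 (-1.02), PHGDH (-1.15) and CHAC1 (-0.97) on the log2 scale. They were smaller for TRIB3 (-0.646), SESN2 (-0.495) and ATF4 (-0.195), and all of these falls passed.

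**Figure D4:**
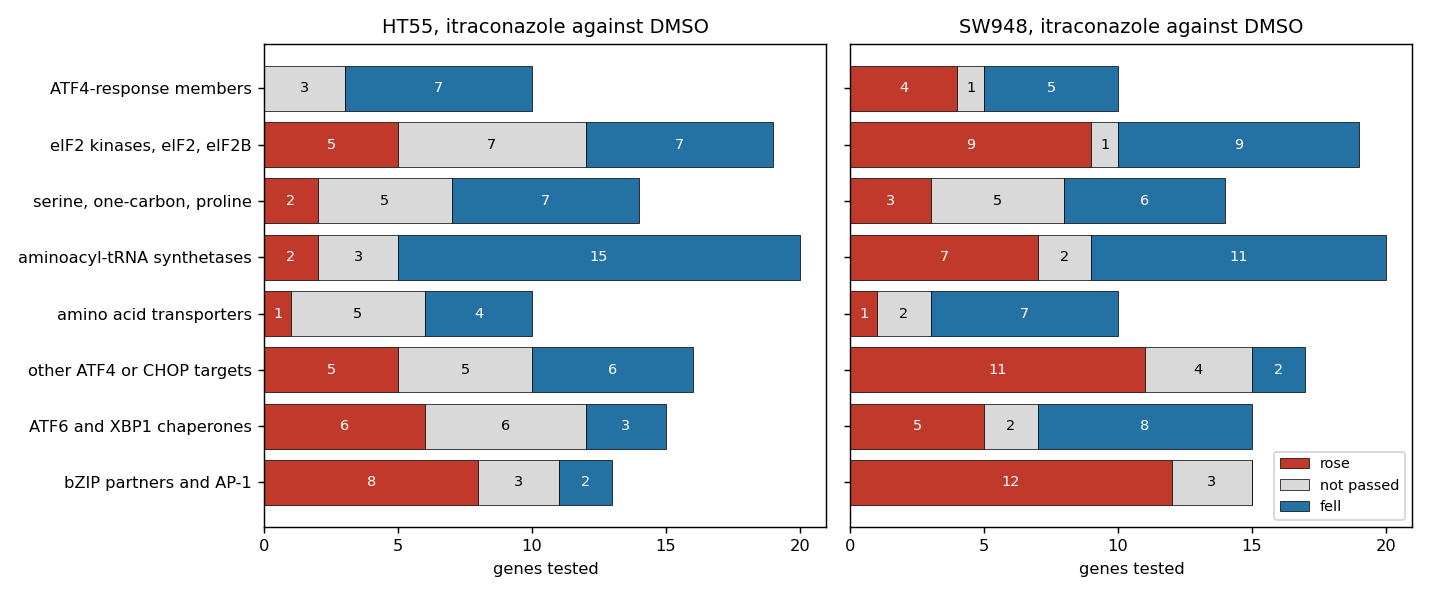
Number of genes tested (horizontal axis) that rose (red), fell (blue) or did not pass (grey) after itraconazole, for the 10 members and 7 related lists, in HT55 (left) and SW948 (right). Among cytosolic aminoacyl-tRNA synthetases 15 of 20 fell in HT55, and among other ATF4 or CHOP targets 11 of 17 rose in SW948, beside 26.5% of all genes falling in HT55 and 38.9% rising in SW948.

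The other genes of the pathway were read by list, and values in parentheses are log2 fold changes ± SE with the edgeR adjusted p. The counts stand beside 27.5% of all genes tested rising and 26.5% falling in HT55, and 38.9% and 41.3% in SW948, and the medians beside -0.015 and -0.025 over all genes. On plain library totals the medians over all genes were -0.18 in HT55 and -0.35 in SW948, beside which values on plain totals stand. No list was tested as a set. Upstream, of 19 genes for the eIF2 kinases, eIF2 and eIF2B subunits and other regulators, 5 rose (26.3%) and 7 fell (36.8%) in HT55. In SW948 9 rose and 9 fell (47.4% each). The list medians were -0.10 and 0.11. EIF2S2, the beta subunit of eIF2, rose in SW948 (0.94 ± 0.073, adjusted p = 3.55e-08) and fell in HT55 (-0.23 ± 0.06, adjusted p = 0.00786). EIF2B2, a subunit of the exchange factor eIF2B, rose in SW948 (0.93 ± 0.096, adjusted p = 6.37e-07), while its partner subunit EIF2B1 fell there (-0.90 ± 0.098, adjusted p = 1.08e-06) and in HT55 (-0.575 ± 0.105, adjusted p = 0.00116). The other subunits EIF2B3 (-0.80 ± 0.14, adjusted p = 0.000115), EIF2B4 (-0.60 ± 0.099, adjusted p = 7.3e-05) and EIF2B5 (-0.87 ± 0.072, adjusted p = 6.71e-08) also fell in SW948. IMPACT, which restrains GCN2, fell in SW948 (-1.41 ± 0.17, adjusted p = 2.89e-06) and in HT55 (-0.33 ± 0.096, adjusted p = 0.0138), the HT55 call being lost in 1 fit on all 16 libraries (-0.33, adjusted p = 0.0688).

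Of 14 tested genes of serine, glycine, one-carbon and proline synthesis, 2 rose (14.3%) and 7 fell (50%) in HT55, against 3 (21.4%) and 6 (42.9%) in SW948, with medians of -0.295 and -0.08. The SW948 share that fell was near the 41.3% of all genes. PSPH, the last enzyme of serine synthesis, fell in both lines as PSAT1 and PHGDH did, by -1.98 ± 0.084, adjusted p = 1.45e-10 in SW948 and -0.81 ± 0.13, adjusted p = 0.000646 in HT55. Its larger fall was in SW948, while that of PHGDH was in HT55 (-0.99 beside -0.29 in SW948). PCK2, the mitochondrial phosphoenolpyruvate carboxykinase, also fell in SW948 (-1.95 ± 0.072, adjusted p = 5.64e-11) and HT55 (-1.045 ± 0.14, adjusted p = 0.00017). MTHFD2, a mitochondrial folate enzyme and a known ATF4 target, rose in SW948 (1.05 ± 0.095, adjusted p = 1.66e-07) and had -0.24 ± 0.12, adjusted p = 0.117 in HT55, where it passed as a fall without treated replicate 2 (-0.32, adjusted p = 0.0431) and on plain totals. ALDH18A1, which starts proline synthesis, rose in HT55 (1.01 ± 0.135, adjusted p = 0.000175) and in SW948 (0.28 ± 0.066, adjusted p = 0.00146), the latter reversing on plain library totals to -0.049.

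The 20 cytosolic aminoacyl-tRNA synthetases, which charge tRNAs with amino acids, had 15 falling (75%) and 2 rising (10%) in HT55, where 26.5% of all genes fell. In SW948 11 fell (55%) and 7 rose (35%), nearer to the 41.3% and 38.9% of all genes. Their medians were -0.295 and -0.19. WARS1, for tryptophan, fell in SW948 (-2.04 ± 0.094, adjusted p = 2.81e-10) and also fell in HT55 (-1.32 ± 0.16, adjusted p = 8.58e-05). MARS1, for methionine, fell in both, with -1.23 ± 0.061, adjusted p = 5.47e-10 in SW948 and -0.84 ± 0.082, adjusted p = 2.88e-05 in HT55. AARS1, for alanine, rose in SW948 (1.39 ± 0.089, adjusted p = 5.53e-09) and missed the threshold in HT55 (-0.039 ± 0.089, adjusted p = 0.727), where its sign turned without treated replicate 3 (0.022) or 4 (0.018) and where it passed as a fall on plain library totals (-0.21, adjusted p = 0.0423). QARS1, for glutamine, rose in SW948 (0.85 ± 0.063, adjusted p = 2.3e-08) and in HT55 (0.36 ± 0.11, adjusted p = 0.0198), the HT55 call being lost without DMSO replicate 2 (0.35, adjusted p = 0.0544), without treated replicate 1 (0.32, adjusted p = 0.0549) and on plain totals. The composite core was in the windows of 7 of the 16 synthetase genes that had one, among them AARS1 and MARS1, which moved in opposite directions in SW948.

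Of 10 amino acid transporters of the response, 1 rose (10%) and 4 fell (40%) in HT55, against 1 (10%) and 7 (70%) in SW948, with medians of -0.26 and -0.72. SLC3A2, the heavy chain that partners several exchangers, rose in SW948 (1.48 ± 0.18, adjusted p = 3.83e-06). Its HT55 value was 0.14 ± 0.055, adjusted p = 0.0461, a call lost in 6 of 8 fits that left out 1 library. The adjusted p was then 0.0889, 0.0927, 0.0918 and 0.0703 without DMSO replicates 1 to 4 and 0.0655 and 0.0543 without treated replicates 2 and 4, and on plain totals the value turned to -0.02. SLC43A1, a carrier of branched-chain amino acids, fell in SW948 (-2.825 ± 0.13, adjusted p = 2.22e-10) and in HT55 (-0.86 ± 0.24, adjusted p = 0.0107). SLC6A9, the glycine carrier, fell in SW948 (-1.74 ± 0.095, adjusted p = 1.39e-09) and missed the threshold in HT55 (-0.48 ± 0.27, adjusted p = 0.16), where it passed without treated replicate 3 (-0.88, adjusted p = 4.69e-05).

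Other ATF4 or CHOP targets were called in unlike numbers in the lines. Of 16 tested in HT55, 5 rose (31.2%) and 6 fell (37.5%), and of 17 tested in SW948, 11 rose (64.7%) and 2 fell (11.8%), with medians of -0.12 and 0.49. The difference of the responses passed as higher in SW948 for 11 of 17 (64.7%) and lower for 1 (5.88%), beside 24.8% and 29.1% of all genes, with a median of 0.63 beside -0.041. GDF15, a secreted stress cytokine, rose in SW948 (2.11 ± 0.20, adjusted p = 2.41e-07) and in HT55 (1.25 ± 0.11, adjusted p = 1.94e-05). KLHL24, an adaptor for a ubiquitin ligase, rose in SW948 (2.50 ± 0.082, adjusted p = 2.42e-11) and in HT55 (1.57 ± 0.20, adjusted p = 0.000134). NIBAN1 fell in both, with -4.95 ± 0.27, adjusted p = 1.35e-09 in SW948 and -2.50 ± 0.27, adjusted p = 4.87e-05 in HT55. VLDLR, a lipoprotein receptor, fell in HT55 (-1.17 ± 0.16, adjusted p = 0.00019) and did not pass in SW948 (-0.42 ± 0.23, adjusted p = 0.0999), where it passed as a fall on plain library totals (-0.75, adjusted p = 0.00926).

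The parallel ER stress arms were read from 15 genes of the ATF6 and XBP1 arms, chaperones and others such as XBP1 itself. Of these 6 rose (40%) and 3 fell (20%) in HT55, against 5 (33.3%) and 8 (53.3%) in SW948. Their medians were 0.10 and -0.18. HSPA5, the ER chaperone BiP, rose in HT55 (0.48 ± 0.099, adjusted p = 0.00216) and did not pass in SW948 (-0.15 ± 0.084, adjusted p = 0.106), where it passed as a fall without treated replicate 3 (-0.21, adjusted p = 0.0234) and on plain totals. DNAJB9, an XBP1-dependent co-chaperone, rose in SW948 (1.11 ± 0.082, adjusted p = 2.05e-08) and HT55 (0.48 ± 0.095, adjusted p = 0.0017). SDF2L1 and CRELD2, both ER luminal proteins, fell in SW948 (-0.95 ± 0.12, adjusted p = 6.61e-06 and -0.83 ± 0.13, adjusted p = 5.31e-05) and missed the threshold in HT55 (-0.12 ± 0.14, adjusted p = 0.479 and -0.16 ± 0.13, adjusted p = 0.306). The ER stress element was in the windows of 6 of the 15 genes, among them HSPA5 and CRELD2.

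Partners of ATF4 and members of AP-1 can join it in bZIP pairs. In HT55 8 of 13 tested rose (61.5%, beside 27.5% of all genes) and 2 fell (15.4%). In SW948 12 of 15 rose (80%, beside 38.9% of all genes) and 0 fell by edgeR. The medians were 0.62 and 0.54. No member of that list fell in SW948 at an unadjusted p under 0.05 or by DESeq2 either. Some bZIP factors were placed in other lists, so these counts do not cover all of them. ATF5 fell in SW948 (-0.63 ± 0.158, adjusted p = 0.00224) and HT55 (-1.035 ± 0.078, adjusted p = 7.62e-06). CEBPB did not pass in SW948 (-0.10 ± 0.132, adjusted p = 0.487) and fell in HT55 (-0.19 ± 0.067, adjusted p = 0.0322). CEBPG rose in SW948 (0.49 ± 0.102, adjusted p = 0.000513). MAFF, a small MAF protein, rose in SW948 (2.66 ± 0.18, adjusted p = 1.06e-08) and also rose in HT55 (1.38 ± 0.23, adjusted p = 0.000651). FOSL1, an AP-1 subunit, rose in SW948 (1.51 ± 0.16, adjusted p = 7.19e-07) and missed the threshold in HT55 (-0.41 ± 0.20, adjusted p = 0.111), where it passed as a fall without treated replicate 2 (-0.61, adjusted p = 0.0131) and on plain totals. NFE2L2, the antioxidant regulator NRF2, fell in HT55 (-0.36 ± 0.075, adjusted p = 0.00226) and did not pass in SW948 (0.079 ± 0.087, adjusted p = 0.411), where its sign turned on plain totals (-0.26, adjusted p = 0.00283) and it passed as a rise without treated replicate 1 (0.17, adjusted p = 0.0316). ATF2 fell in HT55 (-0.275 ± 0.078, adjusted p = 0.012), a call lost without DMSO replicate 1 (-0.23, adjusted p = 0.0504), and rose in SW948 (0.44 ± 0.081, adjusted p = 0.000181), a call lost on plain totals.

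The 5 genes whose pattern over the libraries was most like that of ATF4 were CCT5, SAP18, SBDSP1, EMD and TMSB10. Likeness was Pearson's r of log2 CPM over 16 libraries with each line centred on its own mean, and it ran from 0.976 to 0.981 for these 5 among 8601 genes compared. Among the members r with ATF4 was 0.941 for PPP1R15A, 0.869 for ATF3 and 0.799 for DDIT3, and from -0.694 for CHAC1 to 0.326 for ASNS for the rest. The 16 points share 4 groups and their scaling, so r mostly repeats the group differences above and is given as a description.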

How the data were processed

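RNA was sequenced from 16 libraries of HT55 and SW948 cells (4 groups of 4) as single-end reads of 50 bp from TruSeq libraries. After alignment to hg19, the authors deposited raw read counts for each Ensembl gene. The submitters' processing notes name TopHat, HTSeq and DESeq without versions. The annotation release and the strand setting are not given in the sources used here. Each file ends with totals of reads outside genes, which were left out of library sizes. These were 22.0% to 27.9% of reads for multiply aligned reads, 1.23% to 1.48% for ambiguous reads and 3.79% to 4.94% for reads in no gene. Reads with several alignments were thus not counted, which lowers genes with near-identical copies. The pseudogenes of ATF4, ASNS and PSAT1 had at most 29 counts over all libraries.

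From the deposited counts, which the authors had not normalised, each line was tested alone (8 libraries) and the line contrasts and the difference of responses in 1 fit on 16 libraries. The test was edgeR 4.0.16 (R 4.3.3), quasi-likelihood, with TMM factors, the filterByExpr filter and Benjamini-Hochberg adjustment over all genes tested. Calls needed an adjusted p under 0.05. CPM and RPKM were computed from the counts with TMM-scaled totals of the 16-library fit, and RPKM used the exons of GENCODE on GRCh37. Symbols were matched for 47098 of 54127 identifiers. The script was tested on simulated data with known changes. No 2 libraries held identical counts. DESeq2 1.42.0, other scalings, filters, thresholds, a replicate block and leaving out each library were tried as alternatives. Promoter windows came from RefSeq (GRCh38.p14).

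All 10 members are described. From each other list the text names the 2 largest rises and 2 largest falls in either line among genes called with a mean of at least 8 CPM in that line. Outside that rule EIF2B3, EIF2B4, EIF2B5, ATF5, CEBPB and CEBPG are named beside related genes. They are not in the count of alternative values for named genes. The genes most like ATF4 were sought among genes whose log2 CPM (prior count 2) averaged 3 or more in each line. The members and lists were chosen with earlier results of these data known. The marker PECAM1 was not analysed here.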

Additional observations from a re-analysis of the deposited data

Results flagged for a closer look

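The SW948 response to itraconazole minus the HT55 response differed by edgeR's quasi-likelihood test on the 16 libraries for 7 members. Beside this, 24.8% of all genes tested responded higher in SW948 and 29.1% lower. The log2 difference was 1.22 for ATF4, 1.32 for ATF3, 1.23 for DDIT3, 1.22 for ASNS, 1.43 for PPP1R15A, 0.73 for PHGDH and -1.23 for CHAC1.

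In all, 56 groups of 4 values were examined, among them the levels of the members and the shares of uncounted reads in each group. Of these 56, 3 held a value set apart from the others by more of the range than Dixon's 95% limit, where chance gives 2.8. The share of multiply aligned reads was low in treated SW948 replicate 1, with a gap of 0.91 of the range. In HT55 under DMSO, replicate 4 had a low share of ambiguous reads (0.857) and a high share of reads in no gene (0.948). No member's level was set apart in this way.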

How the results depend on the processing

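Of 1110 alternative values for the members' log2 fold changes, 1058 kept direction and side of the threshold, 32 lost the call, 16 gained one and 4 turned sign. For the named genes of other lists 908 of 970 kept both, 41 lost the call, 16 gained one and 5 turned sign. Except where a cause is stated, the cause was not tested. Plain library totals moved the median of all genes to -0.18 in HT55, -0.35 in SW948, -0.23 for the difference of responses and -0.20 for the lines under DMSO, and changes are best read relative to these shifts. On those totals 3145 genes rose in SW948, 3 members responded lower in SW948 and 5 were lower in HT55 under DMSO. The shares of all genes called lower on those totals are not given here, so these member counts are not read as a result about the members. Signs turned there for ASNS (-0.26), NFE2L2 (-0.26) and ALDH18A1 (-0.049) in SW948, for SLC3A2 in HT55 (-0.02) and for the TRIB3 difference (-0.041). Over the fits that left out 1 library, the ATF4 difference between lines under DMSO ran from -0.043 to 0.026, above 0 without SW948 DMSO replicate 1 (0.016) or 4. AARS1 in HT55 ran from -0.119 to 0.022, above 0 without treated replicate 3 or 4 (0.018).

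Requiring also a log2 change of at least 1 in size leaves fewer genes by construction. In HT55 644 genes rose and 525 fell, 1 of them a member. In SW948 1657 rose and 2344 fell, with 2 members rising and 2 falling. The response was higher in SW948 for 983 genes and lower for 1777. Under DMSO 2074 genes were higher in HT55 and 2320 lower, and under itraconazole 2966 and 2539, with 1 member higher in HT55 in each. At an adjusted p under 0.01, 2082 genes fell in HT55. Leaving out 1 library at a time, members that rose in HT55 numbered 0 to 1, the 1 being ATF3 without treated replicate 3, and members responding lower in SW948 numbered 1 to 2, the second being SESN2 without treated SW948 replicate 3.

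The labels give the groups the same replicate numbers, but libraries with the same number did not all deviate together (r from -0.045 to 0.144 in HT55 and from 0.002 to 0.135 in SW948), and 2 and 3 of 8 libraries were closest to their own number. With the number as a replicate block 6300 genes were called in HT55 beside 6553, and 9973 in SW948 beside 10030. Among the members, DDIT3 in HT55 gained a call under the block (-0.54, edgeR adjusted p = 0.0252). Among the members' responses within a line, the SE was largest for ATF3 in HT55 (0.254).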
